A study of Aspergillus nidulans with 6 samples.

Results

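The *velvet* regulator genes *velB* (AN0363), *veA* (AN1052) and *vosA* (AN1959) were examined for AtfA binding in conidia of *Aspergillus nidulans*. Velvet proteins are fungal transcription factors that share a DNA-binding velvet domain and act in pairs and larger complexes. VelB is the partner common to both main complexes. With VeA, which enters the nucleus in the dark, and the methyltransferase LaeA it co-ordinates sexual development and secondary metabolism. With VosA, a protein of maturing spores, it supports trehalose accumulation, viability and dormancy of conidia. AtfA is a bZIP transcription factor of the ATF/CREB family, which recognizes CRE-type sites and serves spore stress tolerance.

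The loci were chosen from the peak lists themselves, by presence of a peak at each of these genes in at least 1 library, so presence, width, summit and rank at the loci are given as a description and were not tested. They comprise 4 intervals, 1 at *velB*, 1 at *veA* and 2 at *vosA*, and 12 of the 2723 peaks of the series overlapped them. All peaks of the series merged into 707 regions, and the 4 intervals are 4 of these regions by construction. Position and gene were tied together by distances from the TSS that the study lists, and this tie could not be checked here. Gene models on the assembly of the lists were not used here, so exon, intron or UTR cannot be stated. No sequence is printed.

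ChIP-seq was performed with an anti-FLAG antibody on conidia of 1 strain, *atfA*::3XFLAG, in 2 replicates of 3 conditions. Conidia came from untreated cultures of 2 d (untreated 2 d, Untr. (2 d) in the plots), from untreated cultures of 3 d (untreated 3 d, Untr. (3 d) in the plots) and from cultures of 3 d exposed to 0.04 mM MSB (MSB 3 d, MSB Tr. (3 d) in the plots). MSB is menadione sodium bisulfite, which raises intracellular superoxide. All 6 libraries share 1 genotype. It carries the markers *pyrG89* and *pyroA4*, the deletion Δ*atfA*::*AfupyrG*+, the construct *atfA*-3XFLAG::*pyroA*+ and the allele *veA*+. The tagged gene was thus the only form of *atfA*, under its native promoter and with the *trpC* terminator. The number of integrated copies is not stated. *veA*, a member of the group described here, was the *veA*+ allele. Each library has its own peak list of 434 to 473 peaks. Peak scores differ in scale between lists, so each score was expressed as a percentile within its own list, where 100 is the highest score. The lists hold no read counts and depth is unknown. A library without a peak is therefore a library in which none was called, and signal under the calling threshold was not seen here.

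*velB*, which encodes the partner shared by VeA and VosA, had a strong peak in all 6 libraries, *veA* had a weak one in 3, and *vosA* had weak ones in 2 libraries at the first interval and in 1 at the second. Over the libraries with a peak, the score percentile was 91.1 ± 4.82 (SD, n = 6) at *velB*, 22.3 ± 14.9 (SD, n = 3) at *veA* and 8.37 ± 5.56 (SD, n = 2) at the first *vosA* interval, and it was 18.0 in the only library at the second. Each SD pools libraries of different conditions, so it is not a spread between replicates alone. The lowest value at *velB*, 83.4, lay above the highest at the other genes, 35.8, so these ranges did not overlap. Regions of 6 libraries scored higher in general, with a median of mean percentiles of 69.1. The median was 21.3 for regions of both MSB 3 d libraries and 1 untreated library, as *veA*. It was 21.1 for regions of 2 libraries and 13.0 for regions of 1. A gap in this direction is thus not particular to these genes. Among all 707 regions, 35.4% had a peak in all 6 libraries, as *velB* did. The *veA* pattern, both MSB 3 d libraries and 1 untreated library, was held by 3.25% of regions (23 of 707). Regions with a peak in exactly 2 libraries, as at the first *vosA* interval, made up 12.3% and regions of exactly 1 library, as at the second, 24.0%.

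**Figure D1:**
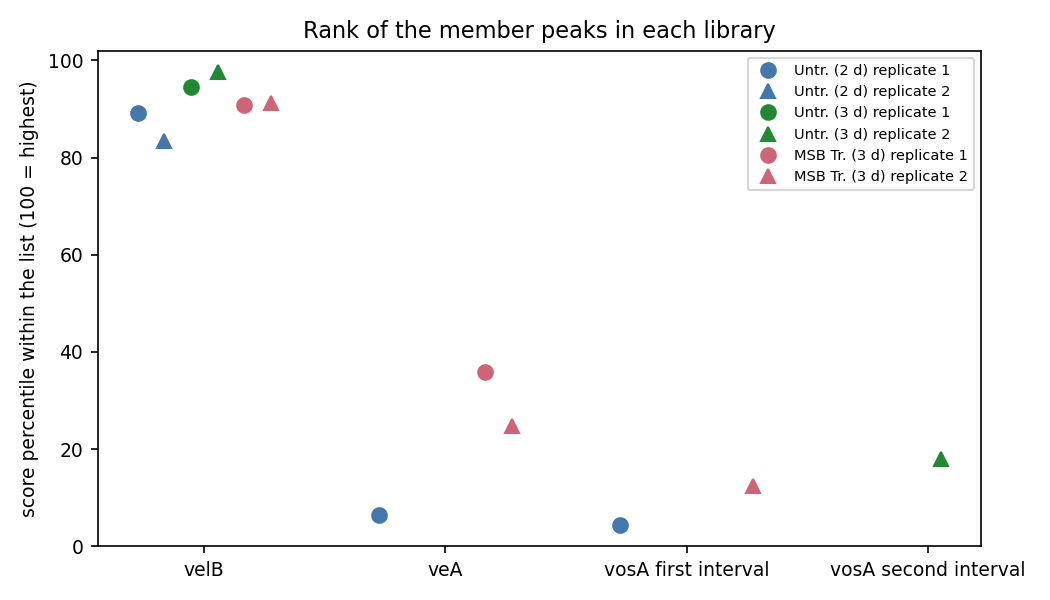
Score percentile within its own peak list (vertical axis, 100 is the highest score) of each peak at *velB*, *veA* and both *vosA* intervals (horizontal axis). Each point is 1 library, coloured by condition, with circles for replicate 1 and triangles for replicate 2, and a missing point means that no peak was called. The 6 points of *velB* sit between 83.4 and 97.6, and those of *veA* and *vosA* between 4.44 and 35.8.

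The *velB* region lies on chromosome VIII from 3784681 to 3785420, in the coordinates of the peak lists, and is 740 bp long. Its peak scored at the 89.2 and 83.4 percentile in untreated 2 d replicates 1 and 2. In untreated 3 d the values were 94.5 and 97.6, and in MSB 3 d 90.7 and 91.3. The 3 conditions therefore did not overlap, with untreated 2 d lowest, MSB 3 d between and untreated 3 d highest. By rank, the peak was number 12 of 451 in untreated 3 d replicate 2, its best place, and number 73 of 434 in untreated 2 d replicate 2, its worst. Both MSB 3 d libraries lay under both untreated 3 d libraries, by a mean of 91.0 against 96.0. The same held for 25.6% of the 250 regions with a peak in all 6 libraries. Both untreated 2 d libraries lay under both untreated 3 d libraries as well, as in 17.2% of these regions. The full order of the 3 conditions seen at *velB* occurred in 6 of the 250 regions (2.40%). With 2 libraries a condition, these orders are a description of the lists.

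Among the 250 regions of 6 libraries, *velB* ranked number 30 by mean score percentile, above 88.0% of them, where their median was 69.1. Among peaks of its own chromosome the *velB* peak had percentiles of 84.1 to 98.6. The lowest was in untreated 2 d replicate 2, and in every other library the value was 94.1 or above.

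The summit of the *velB* peak, the point of highest signal, was placed at base 3784951 in 5 of the 6 libraries. In MSB 3 d replicate 2 it was at 3784961, which is 10 bp away and less than the 20 bp grid on which peak starts and ends fall. Summits at *velB* thus coincided across age and treatment to within the resolution of the lists. Only 2 of the 250 regions of 6 libraries (0.800%) had summits within 10 bp, *velB* being 1 of them, and the median over these regions was 70 bp (quartiles 40 and 140 bp). The centre of the peak was less fixed, with a range of 90 bp, since the edges moved while the summit did not.

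**Figure D2:**
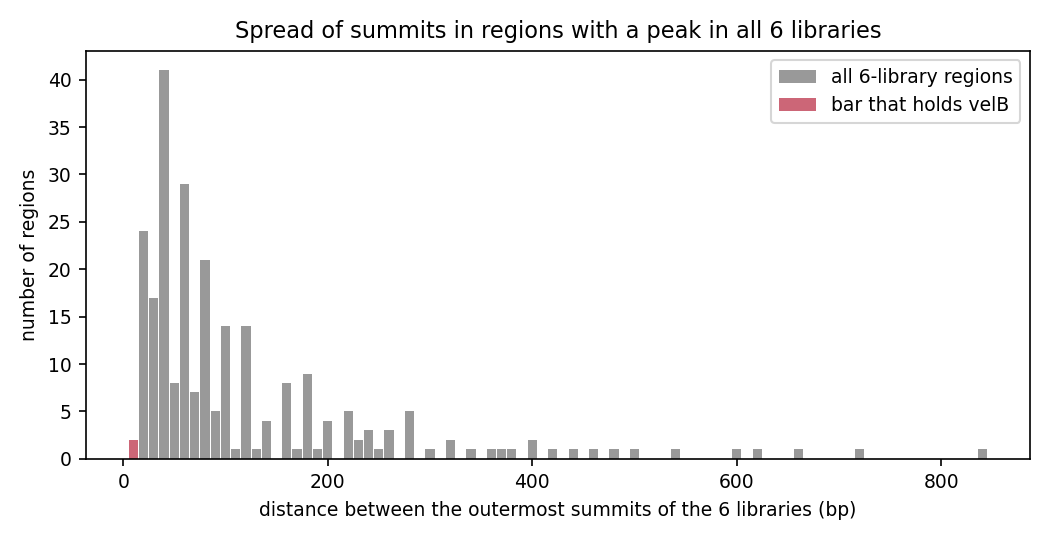
Number of regions (vertical axis) by the distance between the outermost summits of the 6 libraries, in bp (horizontal axis), for the 250 regions with a peak in every library. The red bar at 10 bp holds 2 regions, *velB* among them, and the median region has a distance of 70 bp.

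Widths of the *velB* peak were 620 and 540 bp in untreated 2 d, 540 and 700 bp in untreated 3 d and 600 and 580 bp in MSB 3 d. The conditions overlapped in width, and the median of 590 bp was above the median width of every list, 300 to 400 bp. The lists include many weaker peaks. Beside regions of all 6 libraries, whose median length was 600 bp, the *velB* region of 740 bp was longer than 71.6%. All 6 peaks shared the 520 bp from 3784761 to 3785280, which is 70.3% of the region. The summit was not central, and lay between 30.6% and 45.0% of the way from the lower to the higher coordinate.

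The lower edge of the *velB* peak lay at different distances from the summit in the 3 conditions. It was 190 bp below the common summit in both untreated 2 d libraries, 210 and 230 bp in untreated 3 d, and 270 and 250 bp in MSB 3 d. The conditions did not overlap in this distance, in that both MSB 3 d peaks began before all 4 untreated peaks. The distances of neighbouring conditions came as close as 190 and 210 bp, and 230 and 250 bp, where starts fall on a 20 bp grid. Of the 250 regions of 6 libraries, 26 (10.4%) also had both MSB 3 d peaks beginning before all 4 untreated peaks. How many also separated untreated 2 d from untreated 3 d at this edge was not counted. The upper edge did not order in this way. It was 329 bp above the summit in untreated 3 d replicate 1 and both MSB 3 d libraries, 349 and 429 bp in untreated 2 d, and 469 bp in untreated 3 d replicate 2. The MSB 3 d lists also had wider peaks in general, with median widths of 400 and 360 bp beside 300 to 340 bp in the untreated lists, and the part of this in the shift of the edge was not tested.

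**Figure D3:**
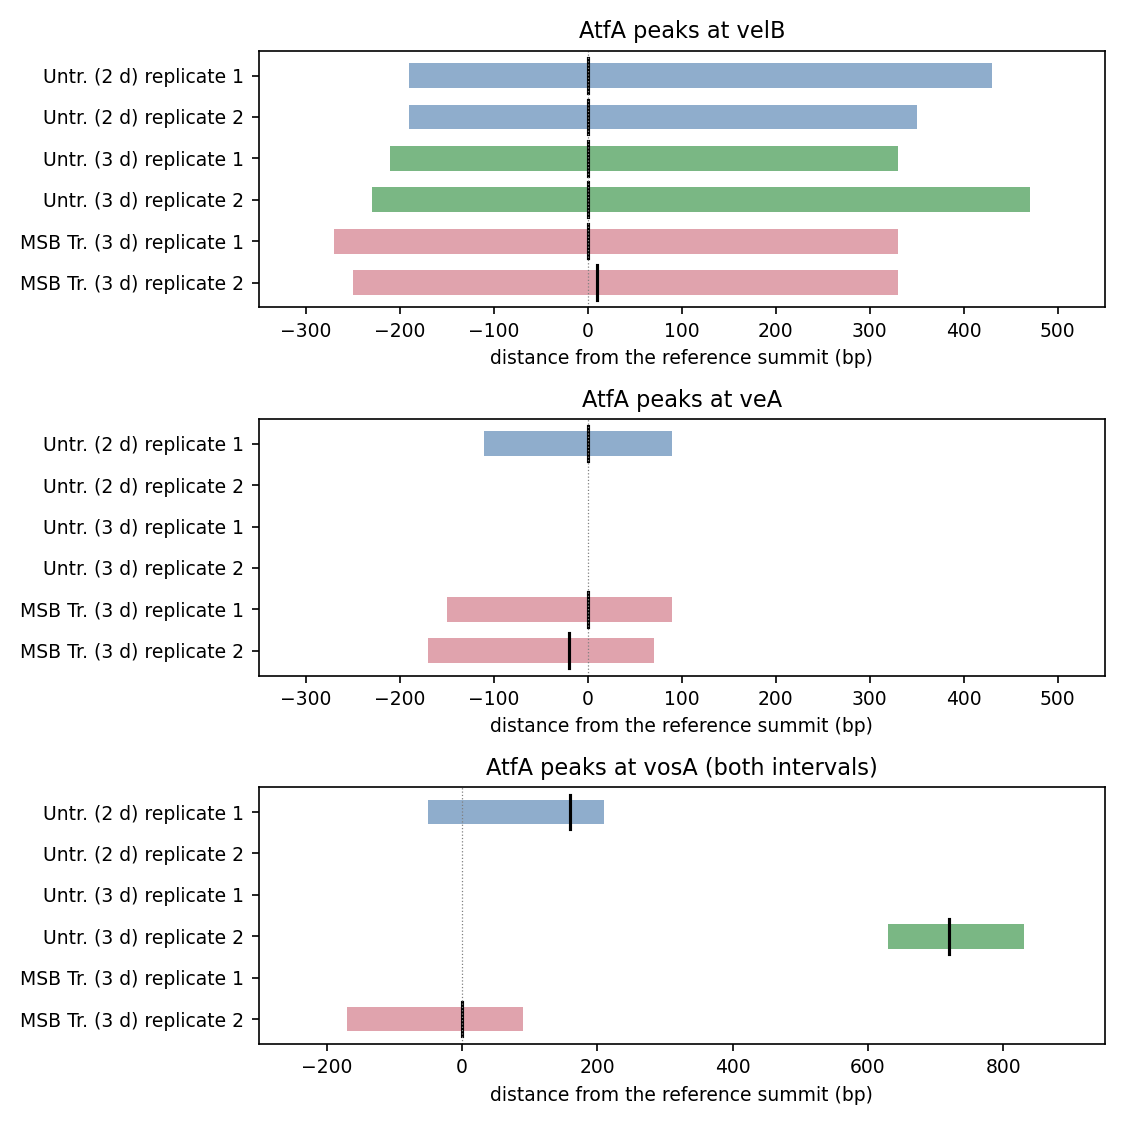
Extent of each peak (bars) and its summit (black ticks) at *velB*, *veA* and *vosA* in the 6 libraries (rows, coloured by condition), as distance in bp from a reference summit (horizontal axis). The reference is the commonest summit at *velB* and *veA* and the MSB 3 d replicate 2 summit at *vosA*. The *velB* summits stand within 10 bp and the *veA* summits within 20 bp of each other, while those at *vosA* lie at 0, 160 and 720 bp, and empty rows are libraries without a peak.

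No other region lay within 10 kb of *velB*, and the nearest, 16080 bp away, was held by 2 libraries at a mean percentile of 21.8. Within 50 kb there were 2 other regions in all, the nearest included, and neither of them was held by all 6 libraries. The median region of the series had a neighbour at 7380 bp (quartiles 1450 and 24100 bp), and 63.2% of regions had a closer neighbour than *velB*, whose spacing was thus inside the quartiles. In the gene order of the RefSeq assembly ASM1142v1, which differs from the coordinates of the peak lists, *velB* stands between AN0364 and AN0362, and it was not tested whether the peak also faces either of these.

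The *veA* region lies on chromosome VIII from 1670061 to 1670320 and is 260 bp long. VeA is the light-dependent member of the family. Its peak was called in both MSB 3 d libraries, at percentiles of 35.8 and 24.8, and in untreated 2 d replicate 1, at 6.34. No peak was called in untreated 2 d replicate 2 or in either untreated 3 d library. Both MSB 3 d values were above the untreated value, but the untreated replicates of 2 d disagreed with each other on whether a peak was present. How often the percentiles had this order in other regions of the same pattern was not counted, so it cannot be called particular to *veA*. All 3 peaks scored under the median of their lists, and only 1 of the 3, that of MSB 3 d replicate 1, was among the 300 best of its list.

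Of the 23 regions with a peak in both MSB 3 d libraries and 1 untreated library, *veA* ranked number 11 by mean percentile, with 22.3 beside a median of 21.3. The untreated library was untreated 2 d replicate 1 in 11 of them, *veA* included, untreated 3 d replicate 2 in 6, untreated 2 d replicate 2 in 4 and untreated 3 d replicate 1 in 2. *veA* was thus of middling strength in its class and shared the commonest choice of untreated library.

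Where a *veA* peak was called, its position was steady. The summit was at 1670231 in untreated 2 d replicate 1 and MSB 3 d replicate 1 and at 1670211 in MSB 3 d replicate 2, a range of 20 bp, where regions of 3 libraries had a median of 50 bp. Widths were 200 bp in the untreated library and 240 bp in each MSB 3 d library. The width of 200 bp is the lowest in all 6 lists, where 5.74% to 10.8% of peaks had it. All 3 peaks shared 180 bp, from 1670121 to 1670300. The lower edge lay 150 and 170 bp from the common summit in MSB 3 d and 110 bp in untreated 2 d replicate 1. Both MSB 3 d peaks began before the untreated one in 10 of the 23 regions of this pattern (43.5%), so the order at *veA* was a common one, and the MSB 3 d lists had the wider peaks in general, as given above.

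The nearest other region to *veA*, 20440 bp toward lower coordinates (1648941 to 1649620), had a peak in all 6 libraries and a mean percentile of 77.0. Its percentiles were 48.6 and 87.3 in untreated 2 d, 81.2 and 92.9 in untreated 3 d and 78.6 and 73.3 in MSB 3 d. The libraries without a *veA* peak had percentiles of 81.2 to 92.9 at this neighbour. Why no *veA* peak was called in them was not tested. On the other side no peak of any list lay within 50 kb. *veA* stands between AN1053 and AN11291 in the RefSeq gene order.

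*vosA*, the gene of the spore-maturation partner of VelB, had its peaks on chromosome VII in 2 separate intervals with 420 bp between them. The first interval, from 2385601 to 2385980, held a peak in untreated 2 d replicate 1 at a percentile of 4.44 and in MSB 3 d replicate 2 at 12.3. The second, from 2386401 to 2386600, held a peak only in untreated 3 d replicate 2, at 18.0. Each condition thus had a *vosA* peak in 1 of its 2 replicates and none in the other, and no library had a peak in both intervals. None of the 3 peaks was among the 300 best of its list.

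The *vosA* peaks also differed in position. At the first interval the 2 peaks, each 260 bp wide, shared 140 bp (53.8% of either). The summit was at 2385931 in untreated 2 d replicate 1 and at 2385771 in MSB 3 d replicate 2, 160 bp apart, and the former lay 71 bp beyond the end of the other peak. Among the 87 regions of exactly 2 libraries, 7 had summits at least as far apart, *vosA* included, and the median was 40 bp. In untreated 3 d replicate 2 the peak was 200 bp wide, the lowest width in the lists, and its summit at 2386491 was 560 and 720 bp from those of the first interval. Where *velB* kept its summit across conditions, *vosA* had a different one in each library with a peak.

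By mean percentile the first *vosA* interval was number 79 of the 87 regions of 2 libraries, whose median was 21.1. The second was number 63 of the 170 regions of 1 library, whose median was 13.0. Apart from each other, the *vosA* intervals had no region within 50 kb. The nearest other peak of any list lay 70420 bp from the first interval. *vosA* stands between AN1958 and AN1960 in the RefSeq gene order.

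Set side by side, MSB 3 d libraries had peaks at 2 of the 3 genes in replicate 1 (*velB* and *veA*) and at all 3 in replicate 2. Untreated 3 d libraries had *velB* alone in replicate 1 and *velB* with the second *vosA* interval in replicate 2. In untreated 2 d, replicate 1 had all 3 genes and replicate 2 only *velB*. The replicates of each condition differed from each other at 1 gene or more, and *velB* was the gene common to every library. Each list held 434 to 473 peaks, beside 707 merged regions in the series. The share of all regions held by each library was not counted, nor was how often replicates differed over all regions. The tally thus cannot be called particular to these genes or to a condition. Partners and pathway genes of the velvet proteins were listed as well, 30 in all, among them *laeA*, *velC*, the pheromone-module genes *steC*, *mkkB*, *mpkB*, *steD* and *hamE*, the conidiation genes *brlA*, *abaA* and *wetA* and the light-receptor genes *fphA* and *lreA*. By symbol 19 of the 30 were matched in the RefSeq table, but its coordinates are of another assembly, so their binding was not analysed here.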

How the data were processed

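AtfA ChIP-seq was done in 6 libraries of conidia, with 2 replicates for each of the 3 conditions, grouped by their titles. The paper refers to biological replicates, but whether they were separate cultures is not stated in the labels. The authors aligned single 75 bp reads with Bowtie2 to the *A. nidulans* assembly at JGI MycoCosm, removed duplicates (Picard), made RPKM tracks (deepTools) and called peaks for each library separately (MACS2, default settings). No input or control track is stated. The deposited score of a peak is a whole number whose derivation is not given in the sources used here, and only its rank was used. Columns for enrichment, p and q hold 0 throughout. Starts and ends fall on multiples of 20 bp and summits on multiples of 10 bp. Depth is unknown, so no interval on a peak can be given.

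Positions are printed 1-based. A peak belonged to an interval when it covered 1 bp or more of it, and overlapping peaks of all lists were merged into regions. The percentile of a peak is the share of its list with a score not above its own. Where a library had several peaks in a region, the best-scored was taken. The members, intervals and lists were chosen with earlier results of these data known. Named genes are the 3 members, listed pathway genes and neighbours in gene order. The 3 members were matched by locus tag in the RefSeq table (ASM1142v1), used for names and order only. The comparisons of conditions at *velB* across regions, of edges and of summit spread were chosen after seeing the data. Merging and ranking were tested on simulated data with Python 3.11.15, numpy 2.4.6 and pandas 2.3.3. Alternatives were summit position, 50% overlap, the 300 best peaks, width as rank, ranking within the chromosome, the lowest-scored of several peaks, the peak centre, the replicate block and leaving out each library.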

Additional observations from a re-analysis of the deposited data

How the results depend on the processing

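Of 84 alternatives, 71 left the value within the spread between libraries or, for counts, within 1.5 times. Many of these 71 could not have moved. The intervals were merged from the peaks themselves, so summit position and share of overlap could not change a count. No library had several peaks in an interval, so taking the lowest-scored changed nothing. Leaving out a library without a peak at *veA* or *vosA* could not change the count or median there. The tally is therefore no measure of stability. With only the 300 best peaks of each list the number of libraries with a peak fell from 3 to 1 at *veA*, from 2 to 0 at the first *vosA* interval and from 1 to 0 at the second, and stayed at 6 at *velB*. With peak width as rank, median percentiles were 85.6 at *velB*, 32.8 at the first *vosA* interval and 8.65 at the second (by score 91.0, 8.37 and 18.0), and 22.9 at the second when ranked among peaks of its chromosome. The summit range at *velB* of 10 bp became 90 bp with the peak centre. With each library left out in turn, it was 0 to 10 bp, 0 without MSB 3 d replicate 2. The median percentile was 15.6 to 30.3 at *veA* (24.8 with all, lowest without MSB 3 d replicate 1). At the first *vosA* interval it was 4.44 to 12.3 (8.37 with all, lowest without MSB 3 d replicate 2). These moves were within 1 SD between libraries, which is certain for any 2 values, as at *vosA*. At *veA* the SD comes from the same 3 values, so it is no independent measure of stability. The libraries with a peak were then 1 to 2 at the first *vosA* interval (1 without untreated 2 d replicate 1 or MSB 3 d replicate 2) and 0 to 1 at the second (0 without untreated 3 d replicate 2). The difference in *velB* percentile between MSB 3 d and untreated 3 d, -5.00 points, was -7.94 by width. With the replicate block it was the same, from pairs of -3.77 and -6.22, because the mean of 2 pairs equals the difference of the means. The cause of these changes was not tested. Beyond missing read counts, 2 libraries a condition and an unknown calling threshold limit what absence of a peak shows.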
